A study of Rattus norvegicus with 12 samples.

Results

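Genes for tubulins and for the proteins that bind, fold, modify and cut microtubules were followed in dorsal root ganglia of rats, the tissue that holds the cell bodies of peripheral sensory neurons. The set held 46 genes, taken by symbol from a fixed list of names, of 20152 genes listed over all libraries. It was made of 5 alpha tubulins, 7 beta tubulins, 2 gamma tubulins, 11 structural microtubule-associated proteins (MAPs), 4 stathmins, 5 folding cofactors, 4 modifying enzymes, 6 plus-end proteins and 2 severing proteins. RNA was sequenced from 4 libraries of rats given paclitaxel at 2.0 mg/kg, 4 of rats given oxaliplatin at 2.4 mg/kg and 4 of rats given vehicle. Both drugs went into the peritoneal cavity, and the study used them to produce painful neuropathy. Paclitaxel was in DMSO thinned with saline and oxaliplatin in a glucose solution, while a single vehicle group was used whose solvent is not named, so a drug and its solvent cannot be told apart. Strain, sex, age, number of injections, hour or day of collection and pooling of animals are not given in the sources used here, and neither is whether replicates were separate animals. The p-values therefore measure the spread between these libraries, which may be technical.

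Microtubules are hollow polymers of alpha and beta tubulin that give long axons their tracks for transport. Gamma tubulin starts new polymers, MAPs such as tau stabilise and space them, stathmins bind free tubulin dimers and favour disassembly, and folding cofactors assemble the dimer. Paclitaxel binds beta tubulin within the polymer and stabilises it, whereas oxaliplatin forms platinum adducts on DNA, and both are known for causing sensory neuropathy in patients.

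All 46 genes were listed in all 12 libraries and all 46 passed the filter on low counts that left 15809 genes for testing. Library totals ran from 17008728 to 17615736 estimated counts. Levels are given as CPM (counts scaled to the library's normalised size) for comparisons of one gene between groups, and as FPKM (scaled also to transcript length) for comparisons between genes. Differences are log2 fold changes ± standard error, and a gene was said to rise or fall where the edgeR quasi-likelihood test gave an adjusted p (Benjamini-Hochberg, over all 15809 genes) under 0.05. The defining markers of the tissue were present: none of 10 neuron markers was at 0 throughout, and 11 of 11 markers of sensory neuron identity passed the filter. The counts are estimates, and a read that fits more than 1 gene can be shared out in parts. Estimates were not whole in more than 6 libraries for 22 of the 46 genes (47.8%), against 5458 of 20152 genes (27.1%) in the whole table. These 22, called uncertain below, included 4 of 5 alpha tubulins (all but Tuba8), 7 of 7 beta tubulins and 2 of 2 gamma tubulins, but 0 of the 4 stathmins, 4 modifying enzymes and 2 severing proteins.

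On the FPKM scale, 4 genes had the highest means over the 12 libraries. Tuba1a, a major neuronal alpha tubulin, averaged 2534 FPKM, Tubb3, the class III beta tubulin used as a marker of neurons, 1520.2 FPKM, Tuba1b 1366 FPKM and Tppp3, a tubulin polymerisation-promoting protein, 1056 FPKM. Stmn2, a neuronal stathmin of growing and regrowing axons, averaged 972 FPKM and its relative Stmn3 749.8 FPKM. At the low end stood Tuba8 with 1.53 FPKM and Dcx, doublecortin of migrating young neurons, with 1.03 FPKM. Of the summed alpha tubulin FPKM, Tuba1a held 61.14% ± 1.47 in paclitaxel libraries, 60.38% ± 1.79 in oxaliplatin libraries and 62.56% ± 0.403 in vehicle libraries (SD, n = 4 each). These Tuba1a shares overlapped between the groups. Tuba1b held 31.2% to 34.33% in paclitaxel libraries, 32.6% to 35.66% in oxaliplatin libraries and 30.81% to 31.91% in vehicle libraries. Its share in every oxaliplatin library was above that in every vehicle library, and the paclitaxel libraries overlapped both. The alpha tubulin shares are a description without a test.

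The make-up of the beta tubulins is likewise given as a description without a test. Tubb3 made up 38.5% to 39.82% of summed beta tubulin FPKM in paclitaxel libraries, 33.29% to 37.5% in oxaliplatin libraries and 36.67% to 37.92% in vehicle libraries. Its share in every paclitaxel library was above that in every library of the other groups. Tubb5, a class I beta tubulin made by most cell types, held 13.24% to 14.78% in paclitaxel libraries, 16.11% to 16.82% in oxaliplatin libraries and 13.38% to 14.59% in vehicle libraries, so the oxaliplatin libraries lay apart. Tubb6, a class V beta tubulin of low level here, held 0.22% to 0.38% in paclitaxel libraries, 0.45% to 0.68% in oxaliplatin libraries and 0.28% to 0.35% in vehicle libraries. Tubb2a held 16.23% to 17.23% in paclitaxel libraries, 16.13% to 17.0% in oxaliplatin libraries and 17.27% to 17.89% in vehicle libraries, all of which lay above the rest. Tubb4a held 3.59% to 4.61% in paclitaxel libraries, 4.67% to 5.66% in oxaliplatin libraries and 4.0% to 4.34% in vehicle libraries. Here too every oxaliplatin library lay above all others. Tubb4b held 13.36% to 14.19%, 13.96% to 15.11% and 15.07% to 15.33% in the same order, so paclitaxel lay below vehicle and oxaliplatin overlapped both. Tubb2b shares overlapped between the groups. All of these genes are uncertain, since the split of reads among near-identical tubulins can move such shares.

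**Figure D1:**
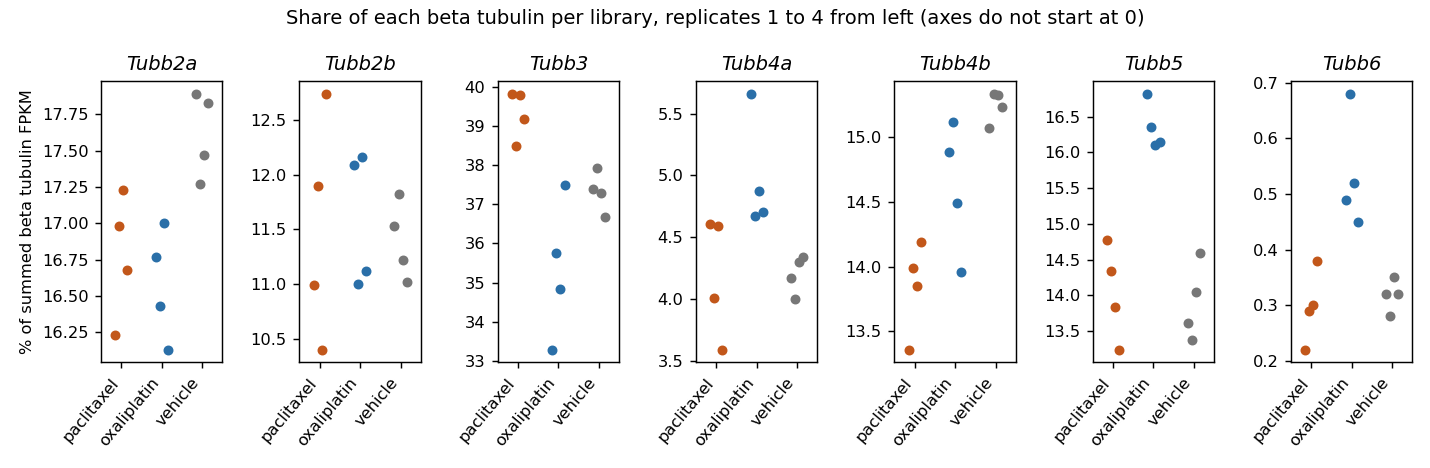
Share of each beta tubulin in the summed beta tubulin FPKM (y axis, percent, separate axes that do not start at 0) in each library, with paclitaxel, oxaliplatin and vehicle along the x axis and 1 dot per library. The Tubb4a, Tubb5 and Tubb6 dots of the oxaliplatin libraries, from 4.67%, 16.11% and 0.45%, lie above those of the paclitaxel and vehicle libraries. The Tubb3 dots of the paclitaxel libraries, from 38.5%, lie above all others.

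The promoters of 4 of the 5 beta tubulins called between the drugs are shown. Tubb2a, Tubb2b and Tubb3 were higher, and Tubb6 lower, in paclitaxel than in oxaliplatin libraries. Tubb4b was also higher, and its promoter is not printed. The sequences are RefSeq's, of assembly GRCr8, and each runs 5′ to 3′ over the 250 bases before the gene's start. Capitals mark matches, on either strand, to a GC box, a CCAAT box, a TATA box, an AP-1 site, a cyclic AMP response element or a cell cycle homology region.
Tubb2a (chr17:31001936-31002185, plus strand): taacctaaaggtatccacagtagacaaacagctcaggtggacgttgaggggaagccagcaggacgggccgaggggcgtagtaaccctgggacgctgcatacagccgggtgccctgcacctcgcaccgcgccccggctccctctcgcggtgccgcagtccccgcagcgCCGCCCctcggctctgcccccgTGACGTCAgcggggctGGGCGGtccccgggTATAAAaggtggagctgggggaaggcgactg
Tubb2b (chr17:30952836-30953085, plus strand): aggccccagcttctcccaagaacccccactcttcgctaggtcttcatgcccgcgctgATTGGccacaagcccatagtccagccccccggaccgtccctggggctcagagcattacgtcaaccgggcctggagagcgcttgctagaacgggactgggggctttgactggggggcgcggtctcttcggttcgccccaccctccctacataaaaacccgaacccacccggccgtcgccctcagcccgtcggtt
Tubb3 (chr19:68365437-68365686, plus strand): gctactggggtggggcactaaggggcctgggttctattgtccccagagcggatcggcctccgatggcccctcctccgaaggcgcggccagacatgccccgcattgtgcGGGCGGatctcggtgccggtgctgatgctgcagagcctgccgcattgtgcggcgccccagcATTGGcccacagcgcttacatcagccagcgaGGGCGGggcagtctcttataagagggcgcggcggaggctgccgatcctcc
Tubb6 (chr18:63213037-63213286, plus strand): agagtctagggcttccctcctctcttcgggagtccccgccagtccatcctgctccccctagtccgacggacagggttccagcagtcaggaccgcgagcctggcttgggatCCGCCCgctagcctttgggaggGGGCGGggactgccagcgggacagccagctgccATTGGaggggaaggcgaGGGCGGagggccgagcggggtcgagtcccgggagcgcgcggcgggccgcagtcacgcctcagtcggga
Tubb2a held 2 GC boxes, a cyclic AMP response element that began 61 bases before the start and a TATA box that began 31 bases before it. Tubb3 held 2 GC boxes and a CCAAT box, Tubb6 held 3 GC boxes and a CCAAT box, and Tubb2b held a CCAAT box alone, 193 bases before the start. Tubb4b, not printed, held 4 CCAAT boxes, 2 GC boxes, a TATA box and a cell cycle homology region. Promoters were found for 36 of the 46 genes, and a GC box, searched as GGGCGG, was in 23 of them (63.9%), against 32.4% of all 27457 promoters of the same length. A CCAAT box, searched by those letters, was in 16 of the 36 (44.4%), against 34.3% of all. The cyclic AMP response element, searched as TGACGTCA, was in 2 of them (5.56%), Tbcc and Tubb2a, against 1.7% of all. A TATA box, searched as TATAAA, was in 6 of the 36 (16.7%), against 13.1% of all. An AP-1 site, searched as TGACTCA, was in 1 (2.78%), against 3.98% of all, and a cell cycle homology region, searched as TTTGAA, in 4 (11.1%), against 16.0% of all. The median GC content was 62.2% in the 36 promoters and 52.0% in all. These are matches of letters only, and in the 4 promoters shown no match overlapped another.

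Most of the genes that passed did so between the drugs. In paclitaxel against oxaliplatin, 13 of the 46 genes passed the test, 12 higher and 1 lower, where 11.3% of all tested genes passed, 4.71% higher and 6.6% lower. The 12 were Stmn4, Tubb3, Stmn2, Ttl, Tubb2a, Tubb2b, Tuba4a, Tppp3, Tubb4b, Tuba1a, Map6 and Ttll7, and the 1 lower was Tubb6. The median log2 fold change of the 46 genes was 0.27 and 41 of them lay above 0, while the median of all tested genes was -0.0 and 49.4% lay above 0. In 13 genes every paclitaxel library was above every oxaliplatin library (6.1% of all tested genes), and in 1 every library was below (9.17%). The count was 24 without paclitaxel 4 and 22 without oxaliplatin 4, but 6 without paclitaxel 1, 6 without paclitaxel 2, and 5 without paclitaxel 3, without oxaliplatin 2 or without oxaliplatin 3. Calls over all genes, 744 higher and 1044 lower with all libraries, moved as well. They were 1677 and 1786 without paclitaxel 4 and 1092 and 1160 without oxaliplatin 4. Without paclitaxel 1, 2 or 3 they were 304 and 506, 217 and 462, and 174 and 427. Without oxaliplatin 2 or 3 they were 267 and 634, and 178 and 393. With limma on log2(FPKM + 1), 7 of the 13 remained, namely Tubb2a, Tubb2b, Tubb3, Tubb6, Stmn2, Stmn4 and Ttl, and there the split over all genes was 282 higher and 1469 lower, against 744 higher and 1044 lower with edgeR.

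In oxaliplatin against vehicle, 2 of the 46 genes passed, where 1.76% of all tested genes did (1.05% higher and 0.708% lower). Tubb6 rose and Tppp3 fell. The median log2 fold change was -0.11 and 12 of the 46 genes lay above 0, against a median of 0.01 and 51.7% above 0 over all genes. At an unadjusted p under 0.05 stood 1 gene higher and 4 lower, where 9.18% of all tested genes were higher and 8.06% lower. Every oxaliplatin library lay above every vehicle library in 1 gene (5.54% of all tested genes) and below in 3, Tppp3, Stmn4 and Mapre1 (5.76%). The count was 0 without vehicle 2, vehicle 4, oxaliplatin 1 or oxaliplatin 2. It was 1 without vehicle 1, vehicle 3, paclitaxel 2, paclitaxel 3, oxaliplatin 3 or oxaliplatin 4. Calls over all genes, 166 higher and 112 lower with all libraries, were 56 and 28, 36 and 13, 61 and 31, and 96 and 59 in the fits with 0. In the fits with 1 they ran from 69 to 182 higher and from 26 to 75 lower.

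Paclitaxel against vehicle gave 0 calls among the 46 genes with edgeR, where 0.12% of all tested genes passed (0.0822% higher and 0.038% lower). An unadjusted p under 0.05 was reached by 16 genes, all of them higher after paclitaxel, where 9.18% of all tested genes were higher and 7.88% lower at that level. The median log2 fold change was 0.18 and 38 genes lay above 0, against -0.01 and 47.9% over all genes. Every paclitaxel library was above every vehicle library in 3 genes, Stmn4, Tubb3 and Tubb2b (3.88% of all tested genes), and below in 0 (3.08%). DESeq2 called these 3 genes, with adjusted p of 0.0203, 0.0352 and 0.0387, and limma voom called 16, while limma on FPKM called 0. In the whole table DESeq2 called 120 higher and 118 lower of 20090 genes, and voom 1179 and 962 of 15809. Over all alternatives the adjusted p ran from 0.0189 to 0.404 for Stmn4, from 0.0201 to 0.999 for Tubb3 and from 0.0232 to 0.999 for Tubb2b. Without paclitaxel 4, edgeR called 14 of the 46 genes, Stmn4, Tubb3 and Tubb2b among them (adjusted p of 0.0483, 0.0277 and 0.0433). That fit called 921 higher and 710 lower of all 15950 tested genes, against 13 and 6 of 15809 with all libraries. The comparisons share libraries: both drugs are set against the same 4 vehicle libraries, and each drug's libraries stand in 2 comparisons.

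**Figure D2:**
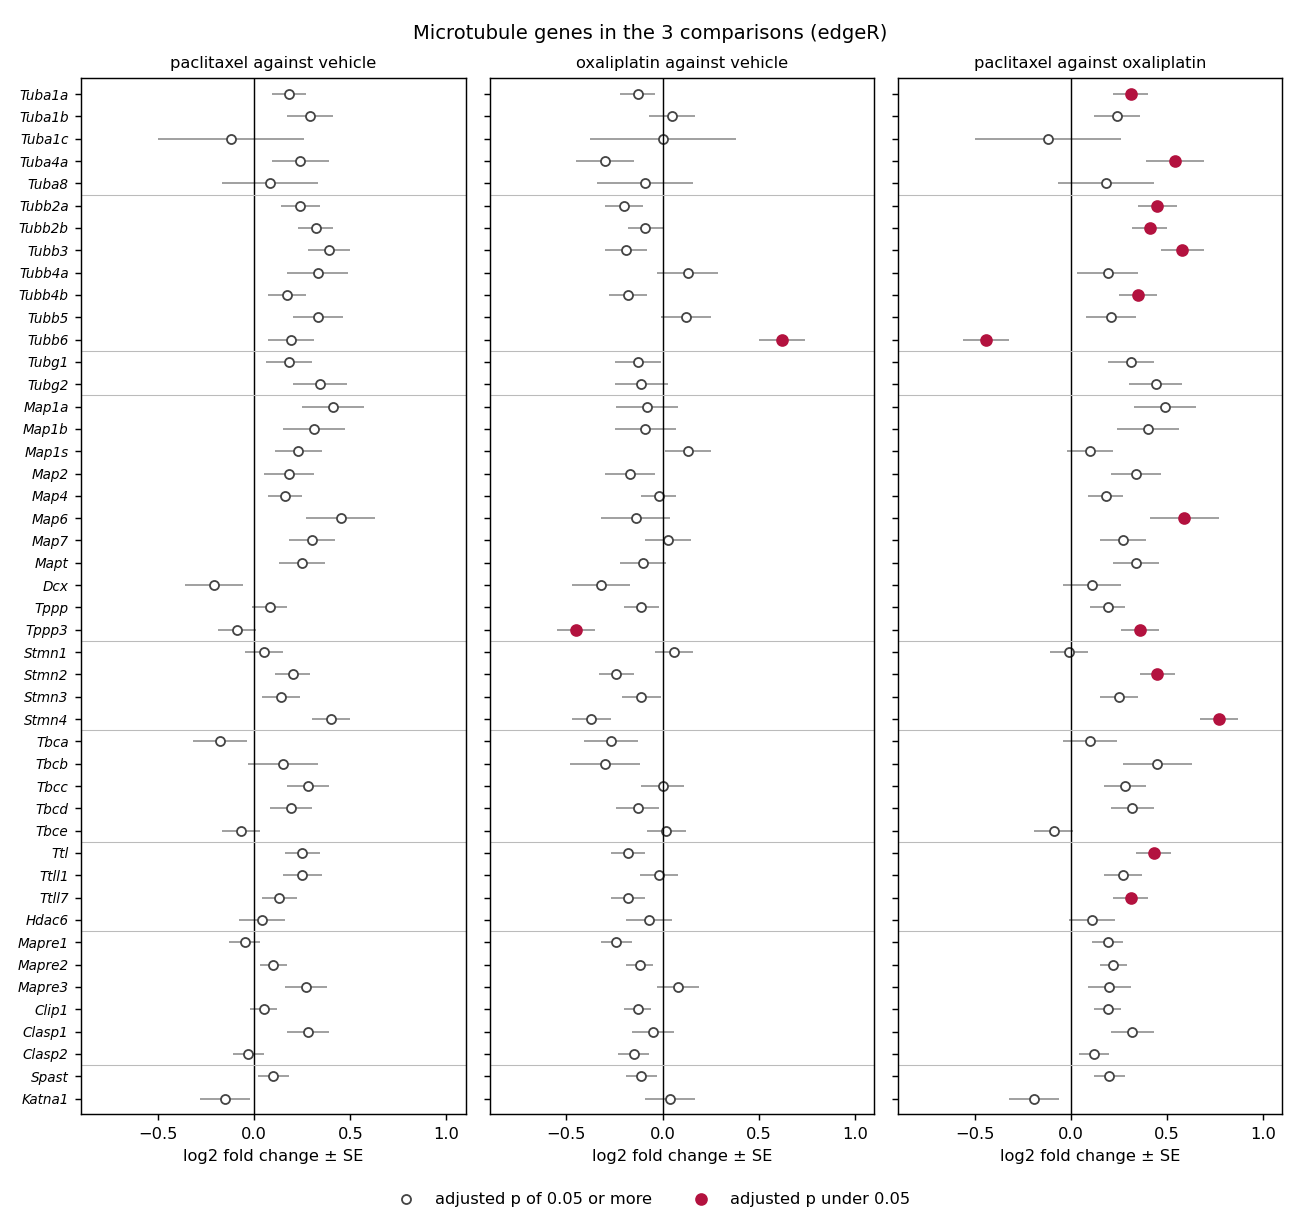
Log2 fold change ± standard error (x axis) of each of the 46 genes (y axis, grouped by role) in the 3 comparisons, with filled dots where the edgeR adjusted p was under 0.05. Filled dots number 0 for paclitaxel against vehicle, 2 for oxaliplatin against vehicle and 13 for paclitaxel against oxaliplatin, where 41 of 46 dots lie to the right of 0.

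**Figure D3:**
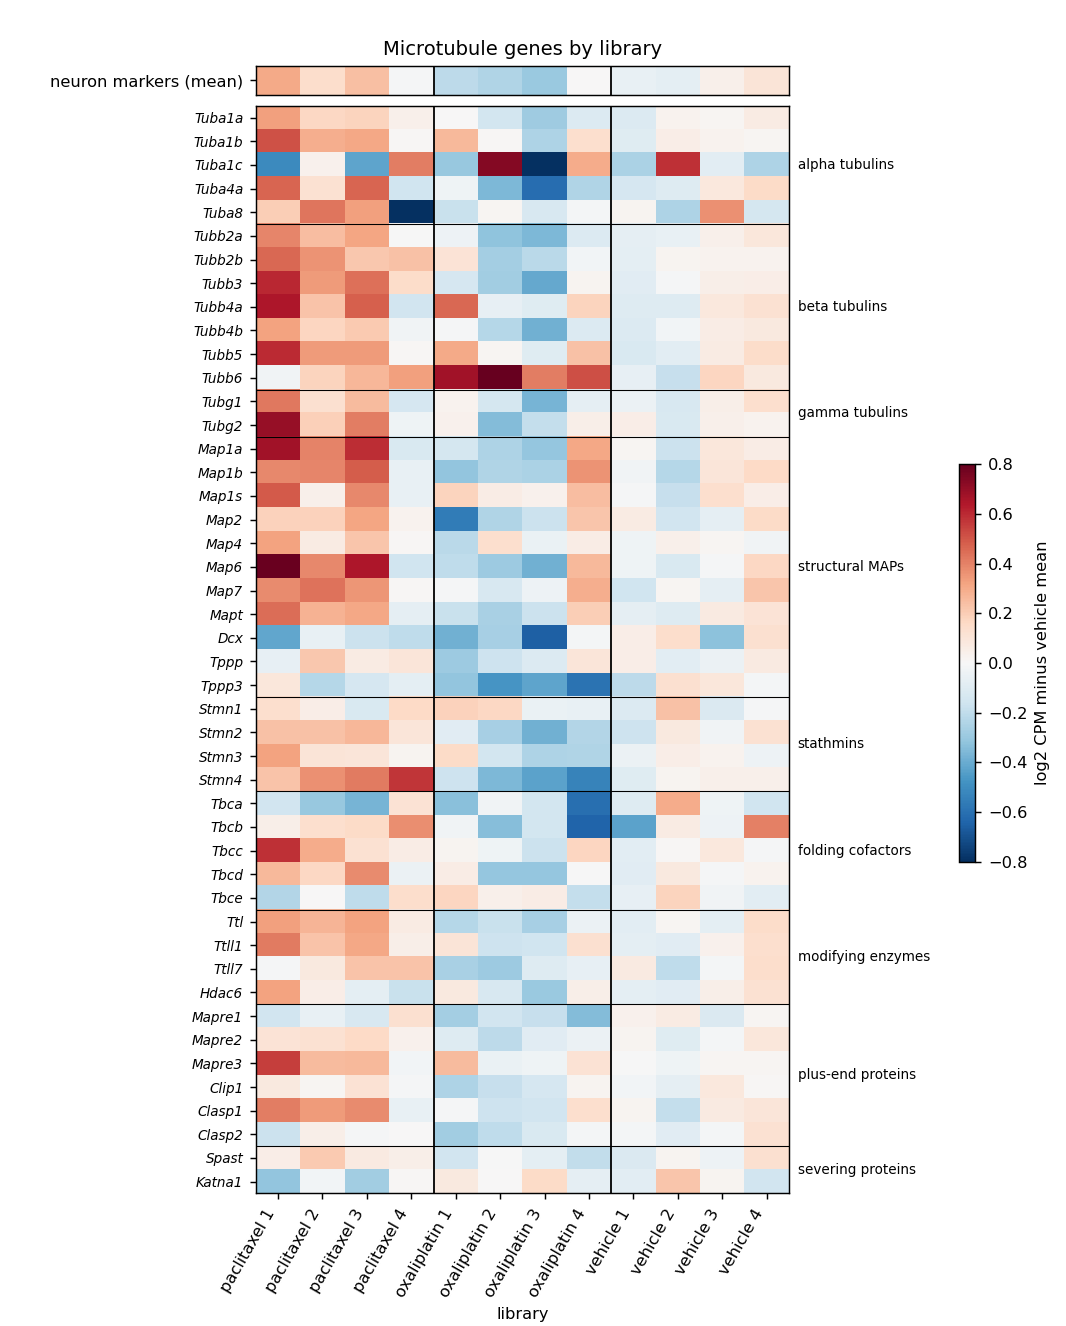
Log2 CPM minus the vehicle mean (colour, limited to 0.8 either way, so larger values share the end colour) of the 46 genes (rows, by role) in the 12 libraries (columns), with the mean of 10 neuron markers on top. Paclitaxel 1 and 3 are mostly above 0 and oxaliplatin 2 and 3 mostly below, while paclitaxel 4 and oxaliplatin 4 lie nearer to the vehicle libraries.

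The libraries of a drug were not alike. The mean log2 CPM of the 46 genes, as a difference from the vehicle mean, was 0.25, 0.17, 0.19 and 0.02 in paclitaxel 1 to 4, and -0.05, -0.12, -0.22 and -0.01 in oxaliplatin 1 to 4. In vehicle 1 to 4 it was -0.07, -0.01, 0.02 and 0.06. Paclitaxel 4, oxaliplatin 1 and oxaliplatin 4 thus lay within the range of the vehicle libraries. The 10 neuron markers (such as Rbfox3, Uchl1 and Snap25) gave 0.30, 0.14, 0.24 and -0.01 in paclitaxel 1 to 4, -0.21, -0.24, -0.30 and -0.00 in oxaliplatin 1 to 4, and -0.06, -0.08, 0.04 and 0.10 in vehicle 1 to 4. Their summed level was 11369 to 16376 CPM in paclitaxel libraries, 8589 to 10857 CPM in oxaliplatin libraries and 10882 to 12515 CPM in vehicle libraries. Of these sums, Nefh alone held 2182 to 4249.7, 1326 to 2132 and 2605 to 3367 CPM. Prph held 2815 to 3910.4, 2049.8 to 2720.4 and 2349.9 to 2766 CPM. Syt1 had 247 to 270.4, 208 to 245 and 226 to 262 CPM. In paclitaxel against oxaliplatin 10 of 10 neuron markers lay above 0 and 3 rose, where 4.71% of all tested genes did. Their log2 fold changes ran from 0.15 to 0.93 (median 0.32). In bulk tissue the number of neurons, the RNA per neuron, the share of other cells and a change of the markers themselves cannot be told apart.

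Among the beta tubulins, 5 of 7 changed between the drugs, 4 higher and 1 lower after paclitaxel. Of all tested genes, 4.71% were called higher and 6.6% lower there. Tubb3 (gene ID 246118) measured 3914, 3266, 3496 and 2853 CPM in the paclitaxel libraries, 2342, 2121, 1942 and 2619.8 CPM in the oxaliplatin libraries and 2418, 2559.8, 2666 and 2669 CPM in the vehicle libraries. All paclitaxel libraries lay above all others, and the oxaliplatin and vehicle libraries overlapped. Tubb3 rose 1.5-fold in paclitaxel against oxaliplatin (log2 fold change 0.58 ± 0.11, adjusted p = 0.009, edgeR) and stayed called without any single library (adjusted p up to 0.0319). Against vehicle it stood at 0.39 ± 0.11 after paclitaxel (adjusted p = 0.203) and at -0.19 ± 0.11 after oxaliplatin (adjusted p = 0.406).

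Tubb2a and Tubb2b, class II beta tubulins rich in neurons, followed the same order of groups. Tubb2a (498736) measured 1420.3, 1282, 1348 and 1081 CPM in the paclitaxel libraries, 1050.3, 867, 843 and 1003 CPM in the oxaliplatin libraries and 1030.0, 1038, 1112 and 1155 CPM in the vehicle libraries. The paclitaxel and oxaliplatin libraries did not overlap, and the vehicle libraries overlapped both. Tubb2a rose 1.36-fold between the drugs (0.45 ± 0.10, adjusted p = 0.0173, edgeR), a call lost without paclitaxel 3 or oxaliplatin 3 (adjusted p up to 0.0574). Tubb2b (291081) measured 1021, 954, 864 and 877 CPM in the paclitaxel libraries, 804, 617, 641 and 734 CPM in the oxaliplatin libraries and 705, 755, 759 and 758 CPM in the vehicle libraries. Every paclitaxel library was above every library of the other groups. Tubb2b rose 1.33-fold between the drugs (0.41 ± 0.09, adjusted p = 0.0177, edgeR), a call lost without paclitaxel 2, oxaliplatin 2 or oxaliplatin 3 (adjusted p up to 0.0573). In the RefSeq gene table of GRCr8 both genes neighbour a further tubulin gene, Tubb2al1, and both are uncertain.

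Tubb4b, a widely made class IV beta tubulin, averaged 1038 ± 102 CPM in paclitaxel libraries, 814 ± 89.9 CPM in oxaliplatin libraries and 921 ± 53.6 CPM in vehicle libraries (SD, n = 4 each). It rose 1.27-fold between the drugs (0.35 ± 0.10, adjusted p = 0.0368, edgeR), with overlap, since paclitaxel 4 had 903 CPM and oxaliplatin 1 had 915 CPM. The call was lost without paclitaxel 1, 2 or 3 or oxaliplatin 2 or 3 (adjusted p up to 0.106). Tubb4b is uncertain and overlaps Cimip2a in the gene table. Tubb4a (0.19 ± 0.16) and Tubb5 (0.21 ± 0.13) did not pass between the drugs, and against vehicle they stood at 0.33 ± 0.16 and 0.33 ± 0.13 after paclitaxel and at 0.13 ± 0.16 and 0.12 ± 0.13 after oxaliplatin, with adjusted p from 0.243 to 0.722.

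Tubb6 was the called member on the other side of 0 between the drugs. Tubb6 (307351) measured 21.2, 24.5, 26.0 and 27.2 CPM in the paclitaxel libraries, 34.4, 40.0, 28.7 and 30.9 CPM in the oxaliplatin libraries and 20.7, 19.0, 24.4 and 22.8 CPM in the vehicle libraries. Every oxaliplatin library was above all others, and the paclitaxel and vehicle libraries overlapped. Tubb6 rose 1.54-fold in oxaliplatin against vehicle (0.62 ± 0.12, adjusted p = 0.0231, edgeR) and was lower in paclitaxel than in oxaliplatin libraries (-0.44 ± 0.12, adjusted p = 0.0329). Against vehicle it stood at 0.19 ± 0.12 after paclitaxel (adjusted p = 0.408). The oxaliplatin call was lost without vehicle 1, 2 or 4 or oxaliplatin 1 or 2 (adjusted p up to 0.0752), and the call between the drugs without paclitaxel 1, 2 or 3 or oxaliplatin 1 or 2 (adjusted p up to 0.0997). Tubb6 is uncertain.

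**Figure D4:**
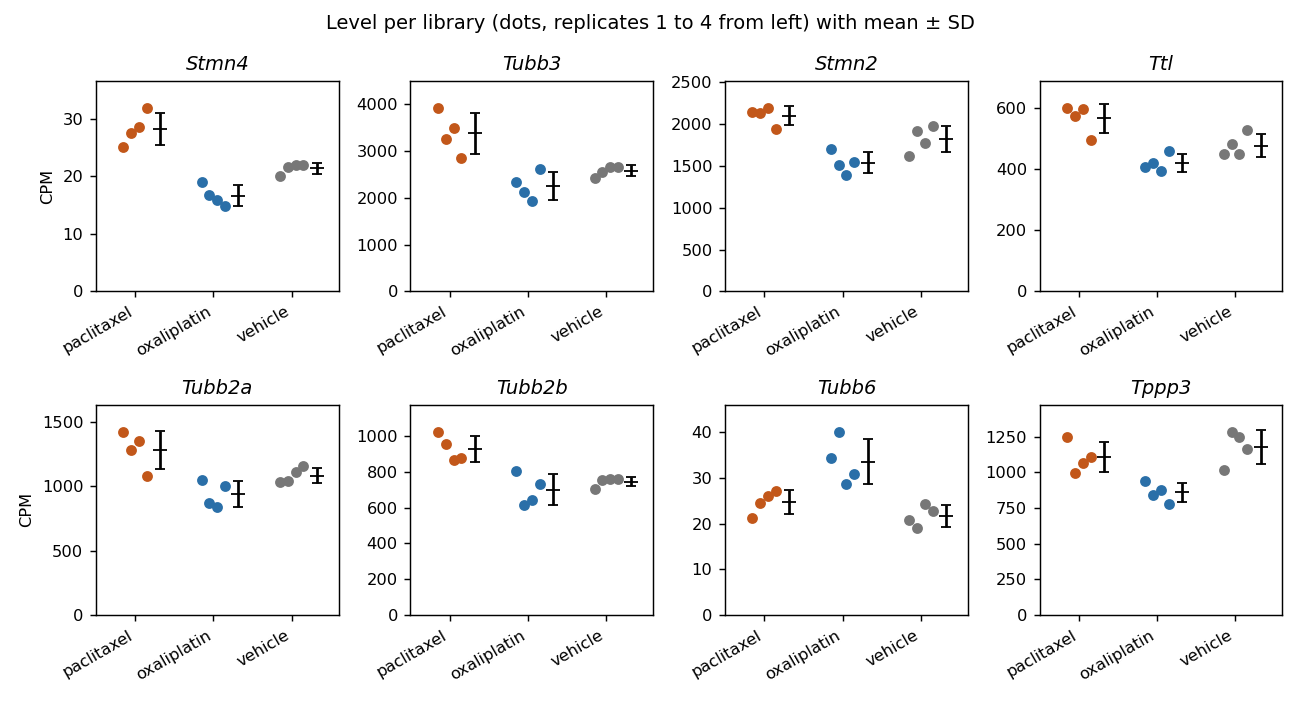
CPM per library (y axis from 0, separate scales) of 8 genes, with paclitaxel, oxaliplatin and vehicle along the x axis, dots for replicates 1 to 4 from left to right and a bar for the mean ± SD. In Stmn4 the 3 groups do not overlap, in Tubb6 the oxaliplatin dots start at 28.7 CPM and the highest of the others is at 27.2 CPM, and in Tppp3 the oxaliplatin dots lie below all others.

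Of the alpha tubulins, 2 of 5 rose in paclitaxel against oxaliplatin, where 4.71% of all tested genes did. Tuba1a (64158) measured 5054, 4519, 4565 and 4140.2 CPM in the paclitaxel libraries, 4033, 3632, 3307 and 3728 CPM in the oxaliplatin libraries and 3735, 4102, 4076 and 4212 CPM in the vehicle libraries. The drugs did not overlap, and the vehicle libraries overlapped both. Tuba1a rose 1.24-fold between the drugs (0.31 ± 0.09, adjusted p = 0.04, edgeR), a call kept without paclitaxel 4, oxaliplatin 1 or oxaliplatin 4 and lost without any other single library (adjusted p up to 0.113). Tuba4a, an alpha tubulin whose gene does not encode the terminal tyrosine, measured 396, 312, 396 and 256 CPM in the paclitaxel libraries, 279.6, 223, 188 and 242 CPM in the oxaliplatin libraries and 260.4, 267, 303 and 319 CPM in the vehicle libraries. Paclitaxel 4 was below oxaliplatin 1, so the drugs overlapped. Tuba4a rose 1.46-fold between the drugs (0.54 ± 0.15, adjusted p = 0.0315, edgeR), lost without paclitaxel 1, 2 or 3 or oxaliplatin 2 or 3 (adjusted p up to 0.1), and stood at -0.30 ± 0.15 in oxaliplatin against vehicle (adjusted p = 0.306). Tuba1b stood at 0.29 ± 0.12 in paclitaxel against vehicle (adjusted p = 0.258). All 3 are uncertain, and the gene table places Tuba1a beside Tuba1b, both within the span given for Tuba1c.

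With all 12 libraries, TMM scaling and no covariate, edgeR called 0 of the gamma tubulins in each comparison. An unadjusted p under 0.05 was reached by 2 of 2 between the drugs and by 1 in paclitaxel against vehicle. Of all tested genes, 29.4% reached it between the drugs (13.8% higher and 15.6% lower) and 17.1% in paclitaxel against vehicle. DESeq2 called Tubg2 and limma voom both gamma tubulins between the drugs. There edgeR called both without paclitaxel 4, and Tubg2 without oxaliplatin 4 or with DESeq2's size factors. It also called Tubg2 in paclitaxel against vehicle without paclitaxel 4. Tubg2 measured 39.2, 27.6, 32.1 and 23.6 CPM in the paclitaxel libraries, 24.8, 19.0, 21.2 and 25.0 CPM in the oxaliplatin libraries and 25.1, 22.2, 24.9 and 24.6 CPM in the vehicle libraries. Paclitaxel 4 lay among the oxaliplatin and vehicle libraries and the other 3 above them. Tubg2 stood at 0.44 ± 0.14 between the drugs (adjusted p = 0.0568, edgeR) and at 0.34 ± 0.14 in paclitaxel against vehicle (adjusted p = 0.26). Tubg1 stood at -0.13 ± 0.12 in oxaliplatin against vehicle (adjusted p = 0.603). These neighbouring genes are uncertain.

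The structural MAPs all lay above 0 in paclitaxel against oxaliplatin (11 of 11, median 0.34), and 2 of them, Tppp3 and Map6, rose. Of all tested genes 4.71% rose there. Tppp3 (291966) measured 1247, 999, 1067 and 1109.7 CPM in the paclitaxel libraries, 943, 843, 876 and 779 CPM in the oxaliplatin libraries and 1015, 1282, 1246 and 1161 CPM in the vehicle libraries. Every oxaliplatin library was below all others, and the paclitaxel and vehicle libraries overlapped. Tppp3 fell by 0.45 ± 0.10 on the log2 scale in oxaliplatin against vehicle (adjusted p = 0.0363, edgeR) and rose 1.29-fold in paclitaxel against oxaliplatin (0.36 ± 0.10, adjusted p = 0.0324). The oxaliplatin call was kept without vehicle 1, paclitaxel 1 or paclitaxel 4 and lost without any other single library (adjusted p up to 0.11). The call between the drugs was lost without paclitaxel 1 or 3 or oxaliplatin 2, 3 or 4 (adjusted p up to 0.0887).

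Map6, which protects microtubules against cold, measured 237, 179, 215 and 123 CPM in the paclitaxel libraries, 119, 112, 105 and 164 CPM in the oxaliplatin libraries and 134, 126, 136 and 154 CPM in the vehicle libraries. Paclitaxel 4 was the lowest of its group and oxaliplatin 4 the highest of its own, and the drugs overlapped through them. Map6 rose 1.51-fold between the drugs (0.59 ± 0.18, adjusted p = 0.048, edgeR), a call kept without paclitaxel 4 or oxaliplatin 4 and lost without any other single library (adjusted p up to 0.139). Map1b, which acts in axon growth, showed the same split, with 4667, 4686, 5013 and 3432 CPM in the paclitaxel libraries, 2884, 3027, 3006 and 4603 CPM in the oxaliplatin libraries and 3515, 3057, 3832 and 3999 CPM in the vehicle libraries. It stood at 0.40 ± 0.16 between the drugs (adjusted p = 0.115). Map1a stood at 0.49 ± 0.16 (adjusted p = 0.0682) and Mapt, the gene of tau, at 0.34 ± 0.12 (adjusted p = 0.0778, uncertain). Map7, a recruiter of kinesin, had the smallest unadjusted p of the MAPs in paclitaxel against vehicle, at 0.30 ± 0.12 (adjusted p = 0.251). The remaining MAPs, Map1s, Map2, Map4, Dcx and Tppp, stood between 0.10 and 0.34 between the drugs without passing.

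The stathmins split into members that differed between the drugs and members that did not pass. Stmn4 (79423), a neuronal stathmin, measured 25.1, 27.6, 28.6 and 31.8 CPM in the paclitaxel libraries, 19.1, 16.7, 15.9 and 14.8 CPM in the oxaliplatin libraries and 20, 21.7, 22.0 and 22.0 CPM in the vehicle libraries. The groups did not overlap: all paclitaxel libraries were above the vehicle libraries and all oxaliplatin libraries below them. Stmn4 rose 1.7-fold in paclitaxel against oxaliplatin (0.77 ± 0.10, adjusted p = 0.00152, edgeR) and was called under all 23 alternatives (adjusted p up to 0.0351). Against vehicle it stood at 0.40 ± 0.10 after paclitaxel (adjusted p = 0.19) and at -0.37 ± 0.10 after oxaliplatin (adjusted p = 0.0861), so neither difference from vehicle passed in this edgeR fit. DESeq2 and limma voom called both, with adjusted p of 0.0203 and 0.0189 after paclitaxel and of 0.0194 and 0.0321 after oxaliplatin. In edgeR the paclitaxel difference passed without paclitaxel 4 (0.0483) and the oxaliplatin difference with the neuron marker score (0.0254). Over the alternatives the adjusted p ran from 0.0189 to 0.404 after paclitaxel and from 0.0194 to 0.22 after oxaliplatin. Stmn4 was highest in paclitaxel 4 and lowest in oxaliplatin 4, the libraries whose mean over the 46 genes was nearest to vehicle.

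Stmn2 (84510) measured 2143, 2136, 2187 and 1941 CPM in the paclitaxel libraries, 1706, 1515, 1393 and 1543 CPM in the oxaliplatin libraries and 1619, 1915, 1779 and 1980.1 CPM in the vehicle libraries. The drugs did not overlap, and the vehicle libraries overlapped both. Stmn2 rose 1.37-fold between the drugs (0.45 ± 0.09, adjusted p = 0.0107, edgeR) and stayed called without any single library (adjusted p up to 0.0391). It stood at -0.24 ± 0.09 in oxaliplatin against vehicle (adjusted p = 0.184). Stmn3 stood at 0.25 ± 0.10 between the drugs (adjusted p = 0.109). Stmn1, the stathmin also made by dividing cells, stood at -0.01 ± 0.10 (adjusted p = 0.978), with 279 ± 24.1 CPM in paclitaxel libraries, 280.4 ± 26.2 CPM in oxaliplatin libraries and 269.6 ± 32.1 CPM in vehicle libraries (SD, n = 4 each). As a share of the summed stathmin FPKM, Stmn2 held 50.27%, 45.88% and 48.76% and Stmn1 12.11%, 15.13% and 13.04% in paclitaxel, oxaliplatin and vehicle libraries.

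Of the modifying enzymes, 2 of 4 rose in paclitaxel against oxaliplatin, where 4.71% of all tested genes did. Ttl (171572), the ligase that puts the terminal tyrosine back on alpha tubulin, measured 599.9, 576, 597 and 498 CPM in the paclitaxel libraries, 407, 421, 396 and 462 CPM in the oxaliplatin libraries and 449.7, 482, 451 and 529 CPM in the vehicle libraries. The drugs did not overlap, and the vehicle libraries overlapped both. Ttl rose 1.35-fold between the drugs (0.43 ± 0.09, adjusted p = 0.0108, edgeR) and stayed called without any single library (adjusted p up to 0.0402). It stood at 0.25 ± 0.09 after paclitaxel and at -0.18 ± 0.09 after oxaliplatin against vehicle (adjusted p = 0.23 and 0.302). Ttll7, a polyglutamylase of beta tubulin, had 858 to 1011 CPM in paclitaxel libraries, 706 to 827 CPM in oxaliplatin libraries and 753 to 953 CPM in vehicle libraries. It rose 1.24-fold between the drugs (0.31 ± 0.09, adjusted p = 0.049, edgeR), a call kept without vehicle 2 or oxaliplatin 4 and lost without any other single library (adjusted p up to 0.139). Ttll1, a polyglutamylase subunit, and Hdac6, the deacetylase of alpha tubulin, stood at 0.27 ± 0.10 and 0.11 ± 0.12 between the drugs (adjusted p = 0.0956 and 0.571).

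With all 12 libraries, TMM scaling and no covariate, edgeR called 0 of the plus-end proteins, folding cofactors and severing proteins in each comparison. Between the drugs an unadjusted p under 0.05 was reached by 4 of 6 plus-end proteins, 3 of 5 folding cofactors and 1 of 2 severing proteins, all higher. At that level 29.4% of all tested genes stood between the drugs, 13.8% higher and 15.6% lower. DESeq2 called Mapre2, Clip1, Clasp1, Tbcd and Spast in this comparison. Limma voom called these and Tbcc and Mapre3. In paclitaxel against vehicle Mapre3, Clasp1 and Tbcc reached an unadjusted p under 0.05, and voom called Mapre3 and Clasp1. In oxaliplatin against vehicle Mapre1 did so, and DESeq2 called it. Other edgeR fits did call some of them. Between the drugs these were Mapre2, Mapre3, Clasp1, Tbcc and Tbcd without paclitaxel 4, Mapre2, Clip1, Clasp1 and Tbcd without oxaliplatin 4, Tbcd without oxaliplatin 1 and Mapre2 with DESeq2's size factors. In paclitaxel against vehicle they were Mapre3 and Clasp1 without paclitaxel 4, and in oxaliplatin against vehicle Mapre1 and Tbca with a neuron marker score as covariate. Mapre1, the end-binding protein EB1, measured 124, 132, 126 and 150.5 CPM in the paclitaxel libraries, 114, 124, 121 and 108 CPM in the oxaliplatin libraries and 141, 144, 127 and 139 CPM in the vehicle libraries. Every oxaliplatin library was below every vehicle library, with a log2 fold change of -0.24 ± 0.08 (adjusted p = 0.138, edgeR). Mapre2 stood at 0.22 ± 0.07 between the drugs (adjusted p = 0.0572) and Mapre3, its neuronal relative, at 0.27 ± 0.11 in paclitaxel against vehicle (adjusted p = 0.249), both uncertain. Tbcd, a cofactor that handles beta tubulin, stood at 0.32 ± 0.11 between the drugs (adjusted p = 0.0637, uncertain). Tbcc, the cofactor that triggers release of the dimer, stood at 0.28 ± 0.11 in paclitaxel against vehicle (adjusted p = 0.252), and Tbca, a holder of beta tubulin, at -0.27 ± 0.14 in oxaliplatin against vehicle (adjusted p = 0.337). Spast, the severing enzyme spastin, stood at 0.20 ± 0.08 between the drugs (adjusted p = 0.1), at 0.10 ± 0.08 in paclitaxel against vehicle (adjusted p = 0.504) and at -0.11 ± 0.08 in oxaliplatin against vehicle (adjusted p = 0.508). Katna1, the catalytic part of katanin, lay on the other side between the drugs, at -0.19 ± 0.13 (adjusted p = 0.358).

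The neuron markers moved with these results, so the model was fitted again with their mean as a covariate. The score and the drug moved together, and their parts cannot be told apart with 4 libraries a group. The score held Nefh and Prph, and whether the drugs change these genes within neurons was not tested. With the score, 24 of the 46 genes lay above 0 in paclitaxel against oxaliplatin in place of 41, and the median was 0.0048 in place of 0.27. Stmn4 was the 1 member called (0.96 ± 0.16, adjusted p = 0.0351, edgeR). Calls among all 15809 tested genes fell there to 15 higher and 8 lower, from 744 and 1044 without the score. Tubb3 then stood at 0.14 ± 0.10 (adjusted p = 0.525), Stmn2 at 0.29 ± 0.13 (0.297), Ttl at 0.15 ± 0.10 (0.501) and Tubb6 at -0.36 ± 0.20 (0.403). In oxaliplatin against vehicle the fit with the score called 8 of the 46 genes in place of 2. Among all 15809 tested genes it called 646 higher and 868 lower, in place of 166 and 112. Tubb6 (0.58), Tubb5 (0.37), Map1s (0.37) and Map1a (0.30) were higher and Tbca (-0.55), Stmn4 (-0.47), Tppp3 (-0.45) and Mapre1 (-0.38) lower, as log2 fold changes. Tubb6 and Tppp3 were called in both fits. Paclitaxel against vehicle gave 0 calls in both fits, with 34 genes above 0 in place of 38 and a median of 0.063 in place of 0.18.

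**Figure D5:**
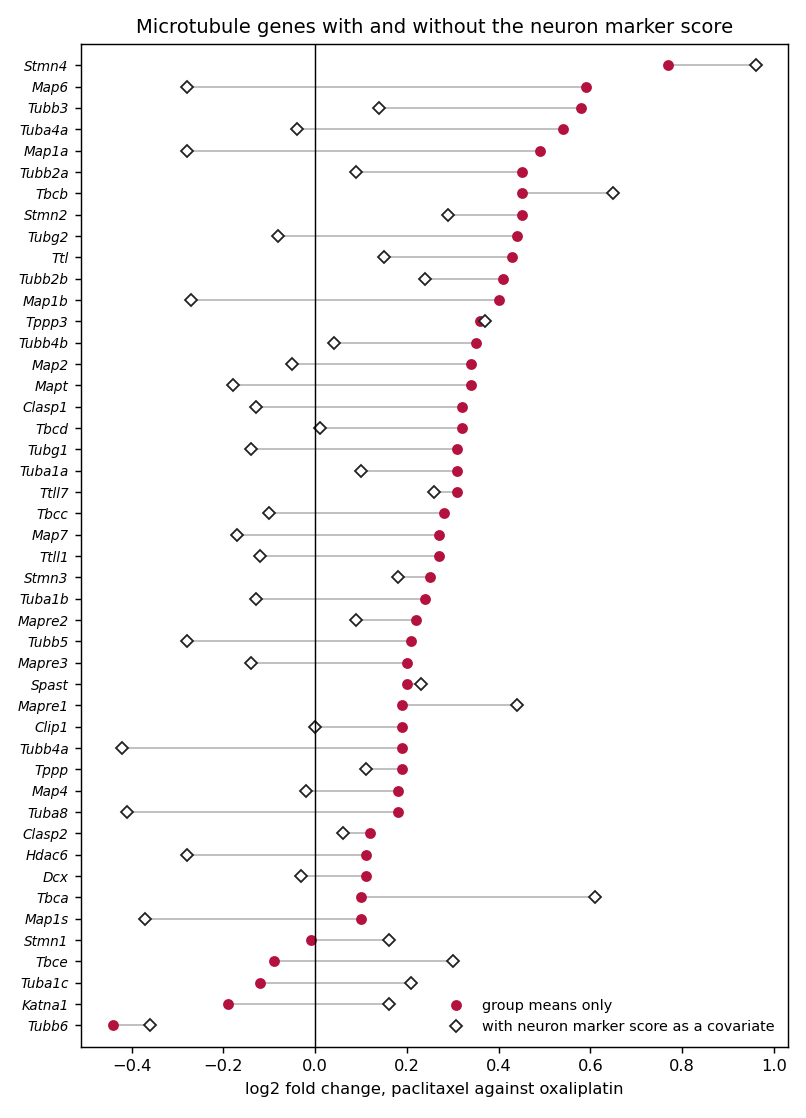
Log2 fold change in paclitaxel against oxaliplatin (x axis) of the 46 genes (y axis), from group means alone (filled) and with the neuron marker score as a covariate (open). Most open symbols lie left of the filled ones, with a median of 0.0048 against 0.27, while Stmn4 moves right to 0.96 and Tubb6 stays below 0 at -0.36.

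Other marker lists also differed between the groups. Markers of axon injury (such as Atf3, Gal and Ecel1) summed to 542 to 565 CPM in paclitaxel libraries, 370.4 to 404 CPM in oxaliplatin libraries and 344 to 429 CPM in vehicle libraries. Of these sums, Gap43 alone held 346 to 366, 262 to 283 and 242 to 318 CPM. In paclitaxel against vehicle 3 of 6 tested markers rose. In oxaliplatin against vehicle 1 rose, Ecel1 (log2 fold change 2.12, adjusted p = 0.00254, edgeR), and 4 of 6 lay below 0. Ecel1 had 6.55 to 17.6 CPM in oxaliplatin libraries and 2.08 to 4.41 CPM in vehicle libraries. Markers of red blood cells, B cells and fat cells were higher after oxaliplatin, with medians of 1.27, 1.73 and 2.22 on the log2 scale against vehicle over 8, 6 and 4 tested genes, of which 0, 0 and 3 passed. Their medians in paclitaxel against oxaliplatin were -2.27, -2.52 and -2.57, and 6, 5 and 4 of these genes were lower. Their summed levels were 294 to 1119.6, 3.75 to 11.8 and 1.51 to 8.51 CPM in paclitaxel libraries. In oxaliplatin libraries they were 1761 to 6154, 12 to 67.4 and 13.1 to 43.8 CPM, and in vehicle libraries 893 to 1833, 11.4 to 14.9 and 4.15 to 7.67 CPM. Of 11 markers of sensory neuron identity, 9 lay above 0 between the drugs, with 4 called higher and 1 lower (median 0.31). Against vehicle their medians were 0.11 after paclitaxel, with 0 called, and -0.06 after oxaliplatin, with 1 called lower. Of all tested genes, 4.71% were called higher and 6.6% lower between the drugs, and 1.05% and 0.708% in oxaliplatin against vehicle. In paclitaxel against vehicle these shares were 0.0822% and 0.038%. Of the remaining marker lists, satellite glia, Schwann cells, macrophages, neutrophils, fibroblasts and endothelium had medians of -0.17, -0.22, -0.63, -1.0, -0.70 and -0.47 between the drugs, with 0, 0, 4, 0, 4 and 2 markers lower. Against vehicle, in the same order, the medians were -0.34, -0.03, -0.99, -1.56, -0.42 and -0.17 after paclitaxel, where 1 macrophage marker was called lower. After oxaliplatin they were -0.12, 0.12, -0.19, -0.46, 0.24 and 0.36, with 0 called in each list. None of these marker lists had a defining marker at 0 in all libraries. Their part in the results on tubulins, Tubb6 included, was not tested.

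Other genes of the pathway came from a list of 104 names (other tubulins, MAPs, end-binding, folding, modifying, severing and spindle proteins), of which 96 were tested. In paclitaxel against oxaliplatin 14 of the 96 passed, 8 higher and 6 lower (median 0.05), where 11.3% of all tested genes passed, 4.71% higher and 6.6% lower. Of the 96, 7 passed in oxaliplatin against vehicle, 5 higher and 2 lower (median 0.01), where 1.76% of all tested genes did. In paclitaxel against vehicle edgeR called 0 (median 0.07), where 0.12% of all tested genes passed. At an unadjusted p under 0.05 that comparison held 17 higher and 1 lower, where 9.18% of all tested genes were higher and 7.88% lower. There DESeq2 called 0 and limma voom 14, and edgeR called 13 without paclitaxel 4. Among all genes these fits called 120, 1179 and 921 higher and 118, 962 and 710 lower. The 2 companion genes with the smallest p in paclitaxel against vehicle were Map7d3, a relative of Map7, at -0.97 ± 0.28 (adjusted p = 0.203) and Map7d1 at 0.36 ± 0.13 (adjusted p = 0.231). Of the MAPs on the list, Dpysl2, a collapsin response mediator that carries tubulin dimers in growing axons, rose between the drugs (0.41 ± 0.09, adjusted p = 0.0136, edgeR), with 791 to 918 CPM in paclitaxel libraries, 592 to 719 CPM in oxaliplatin libraries and 678 to 809 CPM in vehicle libraries. Dclk1, a doublecortin-like kinase, rose by 0.32 ± 0.07 (adjusted p = 0.0161), Dpysl4 by 0.36 ± 0.11 (0.048), Map9 by 0.31 ± 0.09 (0.0387) and Map7d2 by 0.35 ± 0.11 (0.0476), while Map7d3 fell by 1.22 ± 0.28 (0.0176). Map7d2 was also lower in oxaliplatin than in vehicle libraries (-0.50 ± 0.11, adjusted p = 0.0345).

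Among modifying enzymes of the list, Vash1, which removes the terminal tyrosine that Ttl restores, rose between the drugs (0.30 ± 0.09, adjusted p = 0.0474, edgeR). The polyglutamylase subunits Tpgs2 and Lrrc49 also rose (0.25 ± 0.07 and 0.34 ± 0.09, adjusted p = 0.0434 and 0.0321). Cct6a, a subunit of the chaperonin that folds tubulin, was lower in oxaliplatin than in vehicle libraries (-0.31 ± 0.07, adjusted p = 0.0438). Calls kept without any single library were, between the drugs, those of Dpysl2, Prc1, Ckap2, Nusap1 and Tacc3 and, in oxaliplatin against vehicle, those of Prc1 and Ckap2. Each of the other calls was lost without 1 or more single libraries, with adjusted p up to 0.146 between the drugs (Map7d2) and up to 0.139 in oxaliplatin against vehicle (Kif2c). Dclk1 was lost without paclitaxel 3 (0.051), Map7d3 without paclitaxel 1, paclitaxel 3 or oxaliplatin 3 (up to 0.061) and Tpx2, between the drugs, without paclitaxel 2, paclitaxel 3 or oxaliplatin 1 (up to 0.0787).

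The spindle proteins, which act on microtubules in dividing cells, were highest after oxaliplatin. In oxaliplatin against vehicle 10 of 10 lay above 0 (median 0.98) and 5 rose: Ckap2 (1.81 ± 0.21, adjusted p = 0.000891, edgeR), Kif2c (1.39 ± 0.31, 0.0395), Prc1 (1.09 ± 0.15, 0.00351), Tpx2 (1.06 ± 0.22, 0.0347) and Nusap1 (1.05 ± 0.23, 0.0363). Ckap2, a spindle-associated protein, measured 2.72, 2.93, 2.07 and 3.54 CPM in the paclitaxel libraries, 8.89, 9.02, 6.95 and 10.8 CPM in the oxaliplatin libraries and 2.6, 3.39, 2.29 and 1.89 CPM in the vehicle libraries. The oxaliplatin libraries lay above all others. In paclitaxel against oxaliplatin 10 of 10 lay below 0 (median -0.89) and 5 fell, namely Ckap2, Nusap1, Prc1, Tacc3 and Tpx2. Of all tested genes, 6.6% were called lower in that comparison and 1.05% higher in oxaliplatin against vehicle. Markers of dividing cells (Mki67, Top2a, Ccnb1, Cdk1 and Mcm5) summed to 25.5 to 29.4 CPM in paclitaxel libraries, 52.9 to 69.9 CPM in oxaliplatin libraries and 27.7 to 30.7 CPM in vehicle libraries, 4 of 5 rose in oxaliplatin against vehicle, and their part in the spindle results was not tested. Stmn1, which dividing cells also make, stood at 0.06 ± 0.10 in oxaliplatin against vehicle (adjusted p = 0.824).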

How the data were processed

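RNA from 12 rat ganglion samples was read as 1 library each, with 4 libraries per group named by the labels. The authors deposited estimated counts and FPKM per gene for every library, per the file headers. CASAVA 1.4 and Bowtie2 are named per the submitters' processing notes. The quantifying tool, its settings, strand handling and genome build are not given in the sources used here. Genes under an FPKM of 0.01 are not listed and were taken as 0. Counts were rounded to whole numbers, and a count within 0.005 of a whole number was taken as whole. Genes were kept with edgeR's filter by expression (at least 99.93% of counts remained) and scaled by TMM. The test was edgeR 4.0.16's quasi-likelihood test in R 4.3.3, over all 3 groups with 9 residual degrees of freedom and Benjamini-Hochberg adjustment over all 15809 tested genes. Libraries of a group all differed by more than counting noise. Alternatives were DESeq2 1.42.0, limma 3.58.1 (voom, and log2 of the deposited FPKM with pseudocounts 1 and 0.1), other scalings, no filter, the 2 groups alone, a replicate block, each library left out, genes with shared reads set aside, and a neuron marker score as covariate. A list's score is its mean log2 CPM (prior count 2) minus the vehicle mean. Scripts were tested on simulated data. Full statistics were given for members called in any comparison, for the member of each role with the smallest unadjusted p in each comparison, for called companion genes and, where none was called, for the 2 with the smallest p. Other genes with values were chosen after those were seen. The members and lists were chosen with earlier results of these data known. Replicate numbers were not described as pairs: same-numbered libraries of different groups had correlations of deviations from -0.232 to 0.157, and differently numbered ones from -0.249 to 0.239. Depth was nearly even across libraries, so it limits low genes such as Tuba8 (mean 2.25 CPM) alike in all groups.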

Additional observations from a re-analysis of the deposited data

Results flagged for a closer look

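Of 138 groups of 4 libraries (46 genes in 3 groups), 5 held a library far from the other 3, where chance at 1 in 20 gives 6.9. Map1b stood at 4603 CPM in oxaliplatin 4, against 2884 to 3027 CPM in the other oxaliplatin libraries. Mapt stood at 621 CPM in oxaliplatin 4, against 454 to 482 CPM in the others. Spast stood at 53.4 CPM in paclitaxel 2, against 47.7 to 48.5 CPM in the others. Tubb2b stood at 705 CPM in vehicle 1, against 755 to 759 CPM in the others. Tuba1c stood at 89.4 CPM in vehicle 2, against 50 to 56.2 CPM in the others.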

How the results depend on the processing

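In paclitaxel against oxaliplatin the 13 calls became 22 with DESeq2, 32 with limma voom and 7 and 7 with limma on FPKM (pseudocounts 1 and 0.1). They became 6 with only these groups in the fit, 1 with the neuron score and 5 to 24 with a library left out. DESeq2 called 1444 higher and 1338 lower of all 20090 genes there, and voom 2334 and 2446 of 15809. With only these groups in the fit, 259 higher and 757 lower of 15554 genes were called. Limma on FPKM called 282 and 1469 of 15809 genes with pseudocount 1, and 280 and 1424 with 0.1. With upper-quartile scaling edgeR called 598 and 1100. Setting shared reads aside took the uncertain genes out of the fit, so their calls could not be kept. The 6 calls left there were those of every called gene that is not uncertain, Map6, Tppp3, Stmn2, Stmn4, Ttl and Ttll7. In oxaliplatin against vehicle the 2 calls became 4 with DESeq2, 1 and 1 with FPKM, and 1 with the 2 groups alone. They became 8 with the neuron score and 0 to 2 with a library left out. DESeq2 called 436 higher and 468 lower of all 20090 genes there, and the fit with the score 646 and 868 of 15809. Limma on FPKM called 243 and 70 with pseudocount 1, and 165 and 57 with 0.1. The 2 groups alone gave 102 and 59 of 15615. With shared reads set aside, Tubb6 was taken out of the fit and Tppp3 stayed called. In paclitaxel against vehicle the count of 0 became 3 with DESeq2, 16 with voom and 0 to 14 with a library left out, above 0 only without paclitaxel 4. In the whole table DESeq2 called 120 higher and 118 lower there, voom 1179 and 962, and edgeR without paclitaxel 4 called 921 and 710. The companion genes gave 14 and 0 to 13 in paclitaxel against vehicle (voom, a library left out). In oxaliplatin against vehicle they gave 3 (2 groups alone), 16 (neuron score) and 2 to 8 (a library left out). In paclitaxel against oxaliplatin they gave 35 (voom), 9 (upper-quartile scaling), 9 (FPKM, 0.1), 8 (2 groups alone), 0 (neuron score, 18 at an unadjusted p under 0.05) and 5 to 31 (a library left out). With the neuron score 2544 of all 15809 tested genes were at an unadjusted p under 0.05 between the drugs, and 15 were called higher and 8 lower.

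The replicate block, whose numbers share only a number, left 0 members in paclitaxel against vehicle, 0 in oxaliplatin against vehicle (6 at an unadjusted p under 0.05) and 6 between the drugs, and 0, 4 and 11 companion genes. In the same order it called 11, 50 and 309 of all 15809 tested genes higher and 4, 22 and 677 lower. In oxaliplatin against vehicle 2596 of them were at an unadjusted p under 0.05. The medians stayed at 0.18, -0.11 and 0.27 under the block. With the neuron score the medians were -0.0015 in oxaliplatin against vehicle and 0.0048 between the drugs. With it, of the log2 fold changes given in the text or past an unadjusted p of 0.05, these changed sign: Map1b (-0.02) and Mapt (-0.01) in paclitaxel against vehicle, Map1a (0.30), Tubb3 (0.03), Tubg1 (0.10) and Stmn1 (-0.03) in oxaliplatin against vehicle, and, between the drugs, Tuba1b (-0.13), Tuba4a (-0.04), Tubb5 (-0.28), Tubg1 (-0.14), Tubg2 (-0.08), Map1a (-0.28), Map1b (-0.27), Map2 (-0.05), Map6 (-0.28), Map7 (-0.17), Mapt (-0.18), Tbcc (-0.10), Ttll1 (-0.12), Mapre3 (-0.14), Clasp1 (-0.13), Tubb4a (-0.42), Map1s (-0.37), Map4 (-0.02), Dcx (-0.03), Hdac6 (-0.28), Stmn1 (0.16), Katna1 (0.16) and Vash1 (-0.01). Stmn1, at -0.01 between the drugs, also changed sign with DESeq2 (0.01), its size factors (0.01), no filter (0.0) and a library left out (-0.04 to 0.05). The cause was not tested.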
